A study of Homo sapiens with 8 samples.

Results

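The named antisense transcripts that A375 melanoma cells express were compared with the genes they are named after, in cells left untreated (NT) or treated with TNF. A gene of the deposited count table was taken as a member if its symbol ended in -AS and a digit and its mean over the 8 libraries was at least 0.5 CPM (the count per 1000000 counts of the library). This left 287 of the 1491 genes with such a symbol, among 60710 genes in the table, and 971 of the 1491 had a count above 0 in some library. The partner is the gene named before -AS. The table held a partner for 278 members, which made 276 partner genes because DLGAP1 and TSPEAR each have a pair of members. The other 9 members, among them 7 of the HOX clusters, have a name before -AS that matched no gene of the table, and so had no partner here. ZNF295-AS1, 1 of them, starts 866 bases from ZBTB21 on the opposite strand, which was not counted as its partner. The floor is a measured level averaged over both groups, so levels are given as a description. Just inside it lay DDN-AS1 at 0.502 and YTHDF3-AS1 at 0.511 CPM, and just outside it ADNP-AS1 at 0.493 and ST7-AS1 at 0.495.

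A375 is an established human melanoma cell line, and both groups are this line grown in the same serum-supplemented medium. The NT group had 4 libraries of untreated cells and the TNF group 4 libraries of cells given 50 ng/mL human recombinant TNF, all of 24 h, 1 of each group in each of 4 experiments. Polyadenylated RNA was sequenced from a stranded kit, so transcripts without a poly(A) tail were selected against and their counts do not give their level. As a single line, it stands for no other melanoma.

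An antisense transcript is a long noncoding RNA read from the strand opposite to that of a neighbouring gene. Some start within the body of the partner or beyond its end and run through its exons or introns. Others start beside the partner's own start and run away from it, so that both arise from 1 region between divergent start sites, an arrangement called head-to-head. Below, the term rests on opposite strands and starts within 1000 bases alone. Such transcripts are known for acting on the neighbouring locus, and many have no known role. TNF binds its receptors and activates the transcription factors NF-kB and AP-1, which bind short DNA motifs in promoters and enhancers.

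Total counts ran from 30989787 to 44373296 per library. The members took 0.110% to 0.137% of all counts and their partners 2.59% to 2.75%. The small nuclear and cytoplasmic RNAs 7SK and 7SL took 0.00856% to 0.00924% of counts in NT 2, NT 4 and TNF 4, against 0.00153% to 0.00323% in the other 5 libraries, and their part in the results was not tested. Counts without those 3 libraries are given below. SOX10, a melanocyte lineage factor, had 953 to 1296 CPM and MITF 18.8 to 24.6, while the pigment cell genes PMEL and MLANA stayed at or under 0.645 CPM and TYR at or under 0.0232. Of the other lineage genes, S100B fell with TNF by 2.50 on the log2 scale (adjusted p = 6.77e-06) and MIA rose by 0.39 (adjusted p = 0.0322, lost without NT 2, NT 3, NT 4, TNF 1, TNF 2 or TNF 4, up to 0.0896). The leukocyte marker PTPRC had at most 0.0574 CPM and CD3E at most 0.0944, while CD68 rose with TNF (adjusted p = 2.38e-04, edgeR quasi-likelihood test). Of the other lineages, KRT5, PECAM1 and DCN rose from NT levels at or under 0.791 CPM. KRT14 fell from 15.8 to 22.2 CPM in NT to 7.28 to 10.2 in TNF libraries. Genes of the same lineages that did not pass were KRT10 (log2 fold change 0.12, adjusted p = 0.392), VWF (-1.55, adjusted p = 0.0514), COL1A1 (-0.36, adjusted p = 0.31) and LUM (-0.79, adjusted p = 0.399). The part of these genes in the results was not tested.

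The sequences that follow are promoters, from 250 bases before to 50 bases after a RefSeq start site, on GRCh38.p14, printed 5′ to 3′ along the strand of the gene. Of the 287 members 200 had an entry, and so had 229 partners. The motifs searched on both strands were the NF-kB consensus, by its name alone, the AP-1 motif TGANTCA and the E-box CATGTG, and capitals mark a match. The first pair are the start of WNT5A-AS1 (chr3:55487368-55487667, plus strand) and a start of WNT5A (chr3:55487257-55487556, minus strand), shown because both rose with TNF from starts 312 bases apart. The windows share 189 bases and held no match to any of the motifs, and neither did the window of the other RefSeq start of WNT5A.
WNT5A-AS1: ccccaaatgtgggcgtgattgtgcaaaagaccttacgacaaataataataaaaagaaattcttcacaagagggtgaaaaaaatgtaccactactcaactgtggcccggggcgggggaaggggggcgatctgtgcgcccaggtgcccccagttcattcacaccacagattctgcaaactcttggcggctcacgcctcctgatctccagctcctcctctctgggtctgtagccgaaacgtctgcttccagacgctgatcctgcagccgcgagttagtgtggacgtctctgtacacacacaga
WNT5A: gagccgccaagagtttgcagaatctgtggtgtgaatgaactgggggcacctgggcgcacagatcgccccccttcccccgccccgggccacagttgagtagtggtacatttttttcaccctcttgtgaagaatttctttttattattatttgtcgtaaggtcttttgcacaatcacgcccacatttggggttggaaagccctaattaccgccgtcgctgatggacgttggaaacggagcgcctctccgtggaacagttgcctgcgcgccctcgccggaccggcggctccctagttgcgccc
The second pair are a start of NUP153-AS1 (chr6:17705880-17706179, plus strand) and that of NUP153 (chr6:17706876-17707175, minus strand), shown because the antisense transcript rose about 4 times while its partner moved little. RefSeq gives NUP153-AS1 another start 118 bases from that of NUP153, and the start shown lies 795 bases from it. The NUP153-AS1 window shown held a match to the NF-kB consensus, while the window of its other start and that of NUP153 held none.
NUP153-AS1: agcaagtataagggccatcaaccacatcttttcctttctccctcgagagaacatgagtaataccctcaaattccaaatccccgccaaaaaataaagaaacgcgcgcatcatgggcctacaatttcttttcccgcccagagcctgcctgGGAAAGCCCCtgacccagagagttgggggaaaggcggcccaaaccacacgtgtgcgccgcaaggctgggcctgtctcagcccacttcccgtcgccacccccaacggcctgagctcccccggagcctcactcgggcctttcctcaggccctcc
NUP153: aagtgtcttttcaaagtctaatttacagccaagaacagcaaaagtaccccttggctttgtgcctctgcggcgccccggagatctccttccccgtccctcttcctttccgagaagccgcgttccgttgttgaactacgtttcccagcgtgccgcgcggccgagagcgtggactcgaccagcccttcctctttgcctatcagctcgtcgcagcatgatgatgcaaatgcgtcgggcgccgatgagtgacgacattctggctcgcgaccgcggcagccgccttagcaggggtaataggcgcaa
The last 3 are a start of PAX8-AS1 (chr2:113235277-113235576, plus strand), with a pair of matches to the NF-kB consensus, of HECW2-AS1 (chr2:196259774-196260073, plus strand), the member with the largest rise, with no match, and of IRF1 (chr5:132490724-132491023, minus strand), the partner of IRF1-AS1, with 1 match. RefSeq gives PAX8-AS1 another start, whose window held no match.
PAX8-AS1: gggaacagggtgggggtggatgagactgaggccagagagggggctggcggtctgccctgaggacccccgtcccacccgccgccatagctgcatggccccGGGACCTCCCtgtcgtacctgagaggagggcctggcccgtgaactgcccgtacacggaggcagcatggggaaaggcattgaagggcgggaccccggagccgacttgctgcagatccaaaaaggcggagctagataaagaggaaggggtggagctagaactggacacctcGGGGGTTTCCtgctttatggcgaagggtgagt
HECW2-AS1: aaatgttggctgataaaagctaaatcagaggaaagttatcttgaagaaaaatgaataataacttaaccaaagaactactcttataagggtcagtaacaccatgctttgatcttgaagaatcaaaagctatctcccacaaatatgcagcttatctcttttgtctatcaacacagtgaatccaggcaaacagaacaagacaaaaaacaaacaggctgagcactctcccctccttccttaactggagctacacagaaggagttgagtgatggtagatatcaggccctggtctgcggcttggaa
IRF1: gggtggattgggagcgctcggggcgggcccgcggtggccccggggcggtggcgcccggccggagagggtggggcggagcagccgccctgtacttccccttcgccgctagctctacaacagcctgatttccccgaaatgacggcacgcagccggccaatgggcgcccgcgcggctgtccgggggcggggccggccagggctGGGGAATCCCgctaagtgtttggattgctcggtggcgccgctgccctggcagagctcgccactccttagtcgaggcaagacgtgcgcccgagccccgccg
Over all 35116 promoters of the table, 7.73% held the NF-kB consensus, 7.71% the AP-1 motif and 11.1% the E-box. Of the 246 promoters of members 11% held the NF-kB consensus, 4.47% the AP-1 motif and 6.5% the E-box. Of the 25 promoters of members that rose with TNF, 4 held the NF-kB consensus, 2 the AP-1 motif and 0 the E-box, and of the 17 promoters of members that fell these counts were 1, 2 and 2. A match says only that these letters stand in the window.

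The members were expressed at low levels. Their median was 1.82 CPM, 92 of the 287 lay under 1 CPM and 29 reached 10. In the annotation used for positions, 282 were long noncoding RNAs, 26 had a single exon, 1 could not be placed, and 13 are now named as divergent transcripts. FGD5-AS1 was the most abundant at 87.5 CPM, followed by OIP5-AS1 at 55.0, NUTM2A-AS1 at 31.4, AGAP2-AS1 at 25.8 and TPT1-AS1 at 23.9. Per kilobase of exons, the median NT level was 0.494 CPM for members and 3.66 for partners, and 60 of 277 members stood above their partner. Among these were FGD5-AS1, at 14.9 CPM per kb against 0.00837 for FGD5, AGAP2-AS1, at 15.2 against 0.898 for AGAP2, and HPN-AS1, at 2.53 against 0.240 for HPN.

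TNF changed a minority of the members. With edgeR's quasi-likelihood test and Benjamini-Hochberg adjustment over 16186 genes, 36 members (12.5%) were higher and 16 (5.57%) lower at an adjusted p under 0.05. Over all genes tested the shares were 14.5% higher and 9.9% lower, or 24.4% in either direction, so the members' share was near the background for rises and below it for falls. The members had a lower median level, 1.82 against 15.9 CPM over all genes tested. Their median standard error of the log2 fold change was larger, 0.239 against 0.135, and the shares are not matched for this. All members passed the filter on low counts, and their median log2 fold change was 0.07 against -0.0035 over all genes tested. At an unadjusted p under 0.05 there were 50 higher and 33 lower members, against 3150 and 2548 of the 16186 genes tested. The 4 NT and 4 TNF values did not overlap for 42 members that were higher and 18 that were lower, against 15.6% and 11.7% of all genes. Changes past 2-fold were called in 19 members upward and 4 downward, against 5.62% and 2.39% of all genes tested. Of the members above the median level 24 rose and 9 fell, and of those at or below it 12 rose and 7 fell. A mean of 0.5 CPM in both groups was reached by 262 members, of which 30 rose and 13 fell. The 16 members with that mean in the TNF group alone held 6 of the rises, and the 9 with it in the NT group alone held 3 of the falls, and for these the floor favours that direction. The 6 were HECW2-AS1, RALGPS2-AS1, HAS2-AS1, IRF1-AS1, SOCS2-AS1 and ZNF295-AS1, and the 3 were LIFR-AS1, GORAB-AS1 and SP2-AS1. With the experiment as a replicate block, 50 members were higher and 32 lower, and these held all 36 and all 16. The calls over all 16186 genes also grew with the block, to 3451 higher and 2946 lower. Falls were the less stable count, being 8 without NT 1, 9 without NT 2, 9 without NT 3 and 9 without TNF 2. In these fits 1291, 1110, 1184 and 1186 of all genes were lower. Without the 3 libraries with more 7SK and 7SL RNA, 28 members rose and 12 fell, against 2155 and 1401 of all genes.

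**Figure D1:**
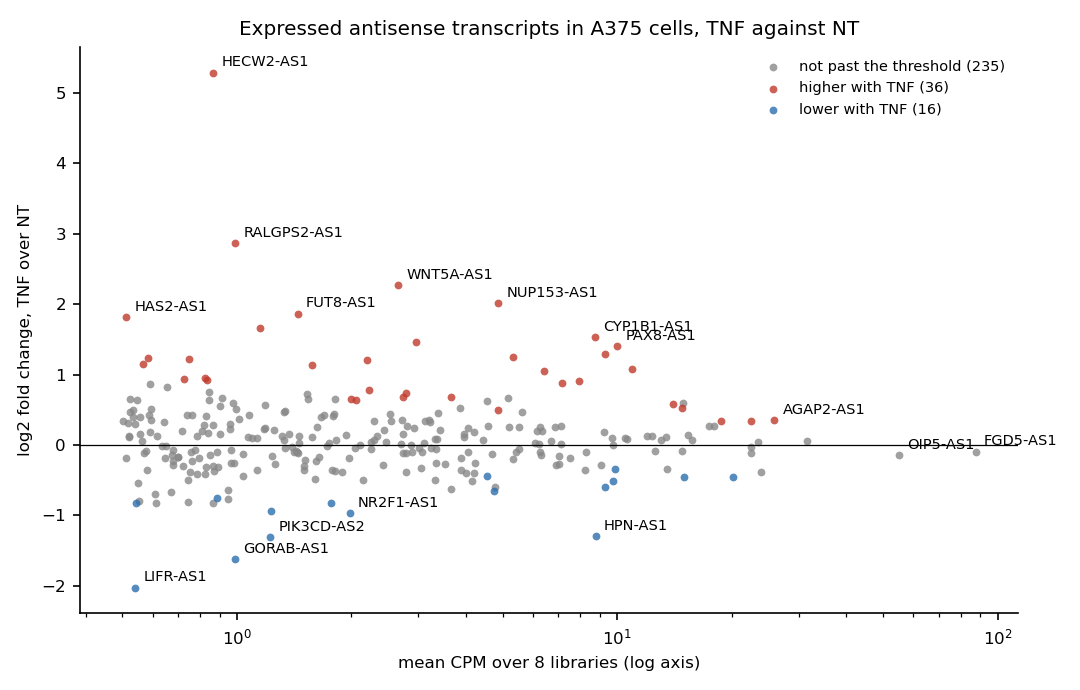
Mean CPM over the 8 libraries (x, log axis) against the log2 fold change of TNF over NT (y) for the 287 members, coloured by whether the edgeR adjusted p was under 0.05. The 36 rises reach further from 0 than the 16 falls, with HECW2-AS1 at 5.29 and LIFR-AS1 at -2.03, and the most abundant members, FGD5-AS1 and OIP5-AS1, lie close to 0.

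Transcripts named as divergent (-DT) at the same floor are the class most like the members. Of 53 such genes 3 rose and 7 fell, with a median log2 fold change of 0.13. Of 7 genes ending in -AS with no digit, 2 rose and 0 fell. No test of these classes against the members was made.

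The largest rise was that of HECW2-AS1 (chr2:196260024-196264204, plus strand, 3 exons), which lies inside HECW2, a gene for a ubiquitin ligase, and shares no exon with it. Its counts were 2, 0, 1 and 3 in the NT libraries and 53, 57, 74 and 61 in the TNF libraries. It was close to undetected without TNF and present in every TNF library. HECW2-AS1 was thus a member through its TNF level alone, and the floor favours a rise. The ratio of the summed counts, scaled for library size, was 42.3, with a 95% interval of 19.2 to 116 that covers counting error only, and the adjusted p of the all-gene fit was 1.33e-05. HECW2 itself had 1.77, 1.37, 1.51 and 1.30 normalised CPM in NT and 2.93, 2.21, 2.94 and 3.20 in TNF libraries (values normalised by TMM factors, as are all CPM per library below). It rose by 0.92 ± 0.19 (SE) on the log2 scale (adjusted p = 0.00507). Per kilobase of exons HECW2-AS1 came from below its partner to above it, at 0.0264 against 0.0628 CPM in NT and at 1.08 against 0.119 in TNF.

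RALGPS2-AS1 (chr1:178724306-178726285, minus strand, 1 exon) had 0.192, 0.355, 0.126 and 0.286 CPM in NT and 1.98, 2.30, 1.74 and 1.07 in TNF libraries. Its log2 fold change was 2.87 ± 0.36 (adjusted p = 1.83e-04), and every TNF value was above every NT value. RALGPS2, which encodes an exchange factor for a Ral GTPase, had 35.4 to 44 CPM in NT and 79.9 to 97.3 in TNF libraries, a log2 fold change of 1.22 ± 0.09 (adjusted p = 6.55e-06). The 2 transcripts share 12.9% of the exon bases of the antisense one.

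WNT5A-AS1 (chr3:55487699-55488308, plus strand, 2 exons) and WNT5A, a secreted ligand of noncanonical Wnt signalling, rose side by side. WNT5A-AS1 had 0.855, 0.792, 1.35 and 0.698 CPM in NT and 5.25, 3.72, 5.63 and 3.20 in TNF libraries, and WNT5A had 39.0, 38.0, 45.1 and 41.4 against 180, 180, 201 and 145. The groups of both genes were well apart. The log2 fold changes were 2.27 ± 0.27 (adjusted p = 1.30e-04) for the antisense transcript and 2.11 ± 0.11 (adjusted p = 4.18e-07) for WNT5A. They share no exon in the annotation, and their starts are 393 bases apart there. The log2 ratio of antisense to partner was -5.42 ± 0.32 (SD, n = 4) in NT and -5.32 ± 0.25 in TNF libraries, and its groups overlapped.

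CYP1B1-AS1 is another head-to-head member that rose with its partner. CYP1B1, a cytochrome P450 that oxidises steroids and aromatic hydrocarbons, had 2.89, 4.37, 3.59 and 3.68 CPM in NT and 7.55, 12.7, 10.5 and 10.3 in TNF libraries. CYP1B1-AS1 had 4.17, 4.59, 6.04 and 3.33 in NT and 12.3, 12.7, 16.9 and 10.5 in TNF libraries. Both rose about 3 times, by 1.53 ± 0.20 for the antisense transcript (adjusted p = 2.48e-04) and 1.5 ± 0.18 for CYP1B1 (adjusted p = 1.62e-04) on the log2 scale, and 6.44% of the antisense exon bases lie over exons of CYP1B1.

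HAS2-AS1 rose with HAS2, the hyaluronan synthase whose locus it crosses, but by less. HAS2-AS1 had 0.171, 0.246, 0.220 and 0.286 CPM in NT and 0.603, 0.583, 0.95 and 1.1 in TNF libraries, on 33 counts in all in NT and 115 in TNF. HAS2 had 1.30, 0.984, 0.755 and 2.70 CPM against 18.7, 29.0, 14.6 and 40.5. The log2 fold changes were 1.81 ± 0.33 (adjusted p = 0.00241) and 4.17 ± 0.44 (adjusted p = 9.95e-05). In both genes every TNF value lay above every NT value. The exons shared make up 4.44% of those of HAS2-AS1.

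PAX8-AS1 and PAX8, a paired-box transcription factor of thyroid and kidney, both rose. PAX8-AS1 had 6.18, 5.16, 5.67 and 5.14 CPM in NT and 13.2, 14.4, 16.7 and 14.6 in TNF libraries, and PAX8 had 1.5, 2.05, 2.42 and 3.02 against 10.4, 12.2, 10.1 and 11.6. Neither gene had groups that overlapped. The antisense log2 fold change was 1.41 ± 0.12 (adjusted p = 1.16e-05) and that of PAX8 was 2.31 ± 0.20 (adjusted p = 1.43e-05). Per kilobase of exons PAX8 stood higher, at 0.305 CPM per kb in NT against 0.250 for PAX8-AS1.

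In other loci the antisense transcript was the one that moved. NUP153-AS1 (chr6:17706094-17707344, plus strand, 1 exon) had 1.92, 2.32, 2.11 and 1.49 CPM in NT and 8.27, 7.15, 7.50 and 8.93 in TNF libraries. NUP153, a nucleoporin of the nuclear basket, had 110, 111, 118 and 127 against 129, 137, 119 and 156. The antisense groups were far apart, while those of NUP153 overlapped, the value of TNF 3 lying below that of NT 4. NUP153-AS1 rose by 2.02 ± 0.16 on the log2 scale (adjusted p = 1.11e-05). The log2 fold change of NUP153 was 0.22 ± 0.09 (adjusted p = 0.113, and 0.0154 with the experiment as a replicate block). Of the NUP153-AS1 exon, 51.9% lies over exons of NUP153, and how reads of such stretches were assigned is not stated.

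FUT8-AS1 starts 40 bases from FUT8, the enzyme that adds core fucose to N-glycans. It had 0.534, 0.847, 0.504 and 0.635 CPM in NT and 2.47, 2.21, 2.02 and 2.52 in TNF libraries, a log2 fold change of 1.86 ± 0.22 (adjusted p = 1.52e-04). FUT8 went from 20.3 to 25.1 CPM in NT to 29.7 to 43.4 in TNF libraries, with a log2 fold change of 0.75 ± 0.13 (adjusted p = 0.00147). Both rose with no overlap between groups, and 54.2% of the antisense exon lies over FUT8 exons.

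ITGB2-AS1 lies beside ITGB2, the integrin chain shared by the leukocyte adhesion receptors. ITGB2-AS1 had 0.470, 0.546, 0.346 and 0.889 CPM in NT and 2.61, 1.38, 1.41 and 1.68 in TNF libraries, and rose by 1.66 ± 0.33 (adjusted p = 0.00399). ITGB2 had 1.92, 1.58, 1.61 and 1.08 in NT and 3.39, 1.97, 2.43 and 1.46 in TNF libraries. Its groups overlapped, at a log2 fold change of 0.57 ± 0.28 (adjusted p = 0.173, and 0.0275 with the replicate block). MYG1-AS1 rose by 1.47 ± 0.19 (adjusted p = 2.10e-04), from 1.41 to 1.97 CPM in NT to 3.82 to 5.47 in TNF libraries. For MYG1, an exonuclease, it was 0.11 ± 0.11 (adjusted p = 0.562). Of the MYG1-AS1 exon bases, 67.1% lie over exons of another neighbour on the opposite strand, PFDN5, whose log2 fold change was 0.11 (adjusted p = 0.375).

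**Figure D2:**
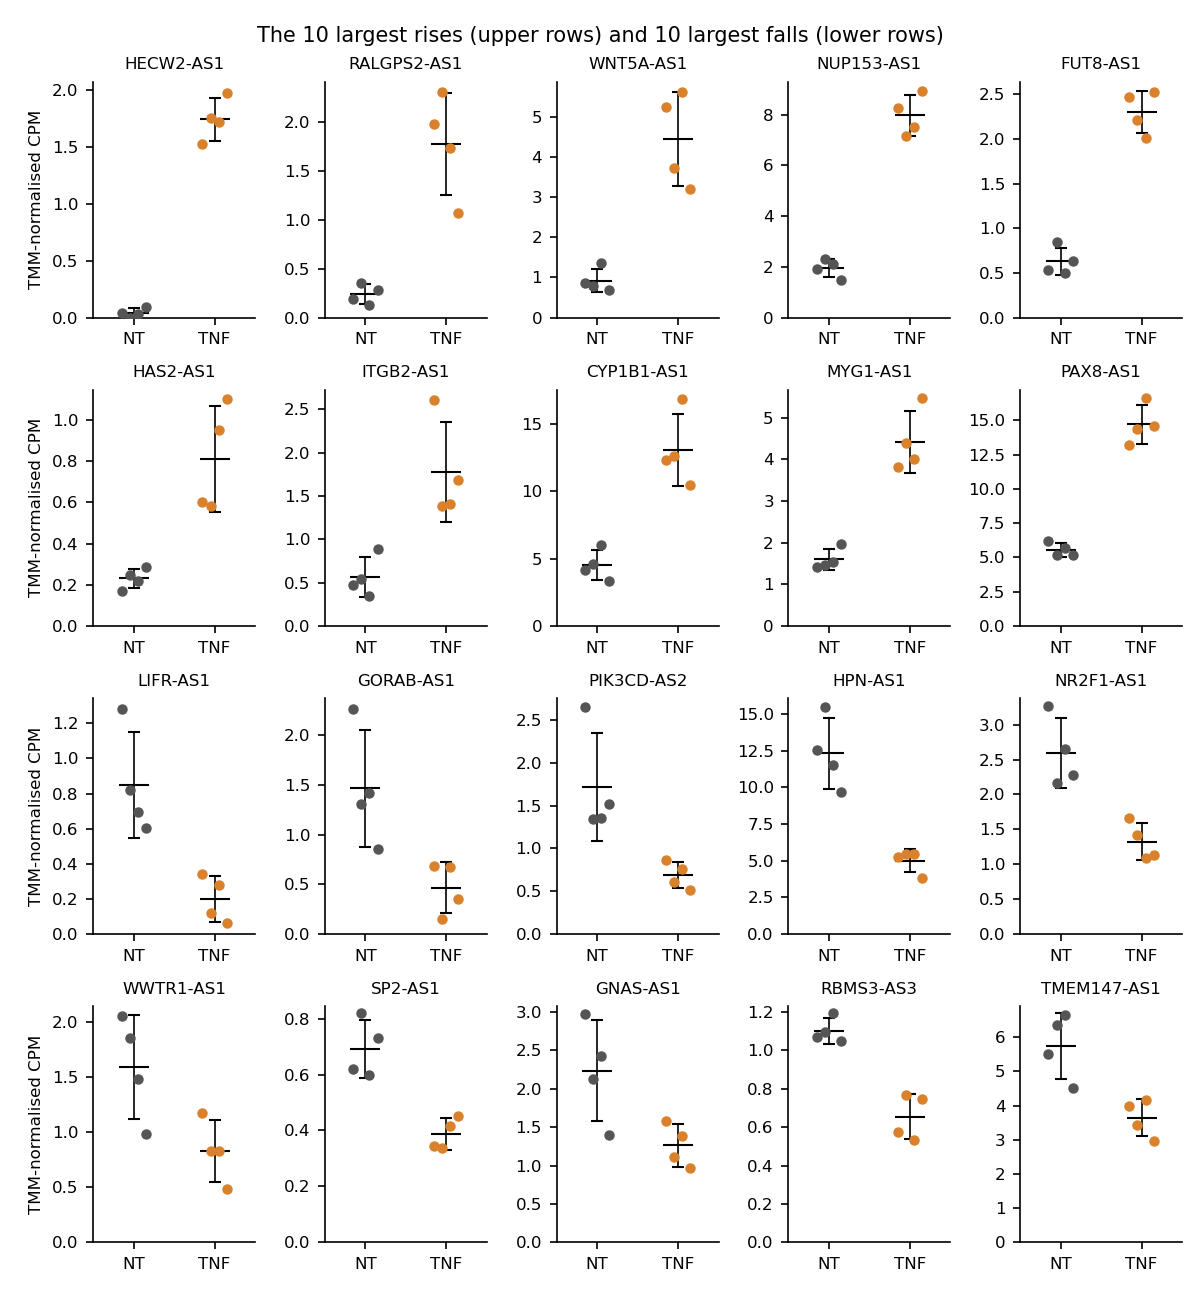
TMM-normalised CPM of the 10 members with the largest rises (upper rows) and the 10 with the largest falls (lower rows) in each NT and TNF library, with points for libraries and bars for the mean ± SD (n = 4). All 10 rises show TNF values above every NT value, and among the falls WWTR1-AS1 and GNAS-AS1 have groups that overlap.

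The deepest fall was that of LIFR-AS1 (chr5:38556765-38671216, plus strand, 9 exons). It had 1.28, 0.820, 0.692 and 0.603 CPM in NT and 0.344, 0.123, 0.278 and 0.0647 in TNF libraries, a log2 fold change of -2.03 ± 0.45 (adjusted p = 0.00730). LIFR, the receptor chain for leukaemia inhibitory factor, had 30.0, 22.9, 23.2 and 23.3 against 6.69, 11.3, 9.89 and 7.25, a log2 fold change of -1.5 ± 0.17 (adjusted p = 1.14e-04). All TNF values of both genes lay below all NT values. LIFR-AS1 was a member through its NT level alone, and the floor favours a fall. NR2F1-AS1 fell with NR2F1, an orphan nuclear receptor of neural crest cells. NR2F1-AS1 had 3.27, 2.16, 2.64 and 2.29 CPM in NT and 1.66, 1.41, 1.09 and 1.13 in TNF libraries, a log2 fold change of -0.97 ± 0.22 (adjusted p = 0.00780). NR2F1 went from 9.17 to 10.7 CPM to 3.30 to 4.56, a log2 fold change of -1.39 ± 0.13 (adjusted p = 3.37e-05).

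In 3 further pairs both genes fell, with antisense calls that were lost when single libraries were left out. The log2 fold change of WWTR1-AS1 was -0.94 ± 0.31 (adjusted p = 0.0493) and that of WWTR1, the transcriptional coactivator TAZ, -0.68 ± 0.12 (adjusted p = 0.00168). GNAS-AS1 had -0.82 ± 0.26 (adjusted p = 0.0427) beside -0.82 ± 0.19 for GNAS, the stimulatory G protein subunit (adjusted p = 0.00975), and RBMS3-AS3 had -0.75 ± 0.23 (adjusted p = 0.0325) beside -0.88 ± 0.19 for RBMS3, an RNA-binding protein (adjusted p = 0.00747). Each of these 3 antisense calls was lost on leaving out any of 6 single libraries. Those were NT 1, NT 2, NT 3, TNF 2, TNF 3 and TNF 4 for WWTR1-AS1 (adjusted p up to 0.134) and for GNAS-AS1 (up to 0.126), and NT 1 to NT 4, TNF 1 and TNF 3 for RBMS3-AS3 (up to 0.0917).

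A second set of falls had a partner that did not pass the test. GORAB-AS1 had 2.27, 1.31, 1.42 and 0.857 CPM in NT and 0.689, 0.154, 0.672 and 0.356 in TNF libraries. Its log2 fold change was -1.63 ± 0.43 (adjusted p = 0.0191, and 0.0621 without NT 1), with no overlap. GORAB, a Golgi protein, had 12.4 to 15.8 CPM in NT and 14.9 to 16.8 in TNF libraries, a log2 fold change of 0.24 (adjusted p = 0.116, and 0.0248 with the replicate block, 0.0447 without NT 4).

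HPN-AS1 was well expressed, with 12.5, 15.5, 11.5 and 9.68 CPM in NT and 5.25, 5.44, 5.44 and 3.82 in TNF libraries, and fell by 1.30 ± 0.17 on the log2 scale (adjusted p = 2.66e-04). HPN, the serine protease hepsin, stayed at or under 1.03 CPM in every library, at a log2 fold change of -1.28 ± 0.43 (adjusted p = 0.0558, 0.0133 with the replicate block and 0.0499 without TNF 4). The log2 fold change was -0.83 ± 0.26 for SP2-AS1 (adjusted p = 0.0390) and 0.16 ± 0.08 for SP2, an Sp-family factor (adjusted p = 0.158, and 0.0333 with the block). The SP2-AS1 call was lost with DESeq2 (adjusted p = 0.0780) and on leaving out any single library but TNF 4 (up to 0.117). TMEM147-AS1 had -0.66 ± 0.17 (adjusted p = 0.0172) and TMEM147 -0.0085 ± 0.17 (adjusted p = 0.982), and the antisense call was lost without NT 2, NT 3 or TNF 2 (up to 0.0568).

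Pairs were then read together. In 253 pairs both genes were tested, and 37 partners (14.7%) rose and 26 (10.3%) fell of 252 tested, close to the shares over all genes. Both genes passed the test in the same direction in 25 pairs (18 higher, 7 lower) and in opposite directions in 5. In 13 pairs the member alone rose, in 6 it alone fell, in 16 the partner alone rose and in 18 it alone fell, and in 170 neither passed. With the experiment as a replicate block 65 partners rose and 48 fell, with 40 pairs in the same and 10 in opposite directions. Over all genes 3451 rose and 2946 fell with the block. Leaving out NT 2 gave 16 pairs in the same direction. The 18 that rose together were the pairs of ARAP1-AS1, CYP1B1-AS1, EML2-AS1, FOXD1-AS1, FUT8-AS1, GAS6-AS1, HAS2-AS1, HECW2-AS1, IRF1-AS1, MSC-AS1, PAX8-AS1, RALGPS2-AS1, RGMB-AS1, SERTAD4-AS1, SH3RF3-AS1, SOCS2-AS1, TRHDE-AS1 and WNT5A-AS1. Nearly all exon bases of ARAP1-AS1 (99.2%), EML2-AS1 (95%) and FOXD1-AS1 (100%) lie over exons of the partner on the other strand. The 7 that fell together were those of GNAS-AS1, LIFR-AS1, NR2F1-AS1, PRR7-AS1, RASSF8-AS1, RBMS3-AS3 and WWTR1-AS1.

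The annotation placed 128 members head-to-head with their partner (starts within 1000 bases, opposite strands), 145 overlapping it on the opposite strand with starts further away, and 4 apart. Whether head-to-head starts point away from each other was not checked. NUP153-AS1, in this class, starts within NUP153 and runs over its start. Of 127 head-to-head pairs with both genes tested, 10 moved in the same direction (7.87%) and 0 in opposite directions. The 0 does not hold with the replicate block in edgeR. There GORAB-AS1 fell (adjusted p = 0.00175) and GORAB rose (adjusted p = 0.0248). TMPO-AS1 rose there (adjusted p = 7.77e-04), and TMPO, lower without the block, passed too (adjusted p = 0.00529). Among 1420 head-to-head gene pairs of the table that contain no member, 60 (4.23%) moved in the same direction and 0 in opposite directions, and for 487 of these made of a long noncoding RNA and a coding gene 30 did (6.16%). Of 121 overlapping pairs, 15 moved in the same and 5 in opposite directions. These shares come from the fit without the block and were not tested against each other.

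Across the 253 pairs the log2 fold changes of member and partner had Pearson's r of 0.48 and Spearman's rho of 0.46, given as a description, since all pairs come from the same 8 libraries. Pearson's r was 0.59 in head-to-head pairs and 0.44 in overlapping ones. Over the 1420 head-to-head gene pairs without a member it was 0.46 (rho of 0.34). Over the 487 of these made of a long noncoding RNA and a coding gene it was 0.46 (rho of 0.38). Among the pairs of members it was 0.65 over the 190 pairs with some exon overlap and 0.16 over the 62 with none. It was 0.74 (rho of 0.44) over the 36 of those 62 that are head-to-head. A read from an exon stretch shared by 2 strands can be given to either gene when strand is not used in counting, and whether it was used is not stated, so the part of shared reads was not tested. Of the 62 pairs with no exon overlap 5 moved in the same direction, those of HECW2-AS1, RBMS3-AS3 and WNT5A-AS1 among them, and 4 in opposite directions. In 26 pairs the ratio of antisense to partner was tested by an exact two-sided permutation over the 70 assignments of the libraries. In 14 of them it reached 0.0286, the smallest p this permutation allows, or 0.0531 after Benjamini-Hochberg adjustment over the 26. This permutation does not use the pairing of libraries by date. A sign-flip test over the 4 experiments, which does, gave 0.125 in each of the 14, the smallest p it allows. All 26 pairs were chosen by the change of their genes, so the p-values are no separate evidence. Over all 253 pairs the ratio groups did not overlap in 32 (12.6%). The same held for 196 of the 1420 head-to-head gene pairs without a member (13.8%).

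**Figure D3:**
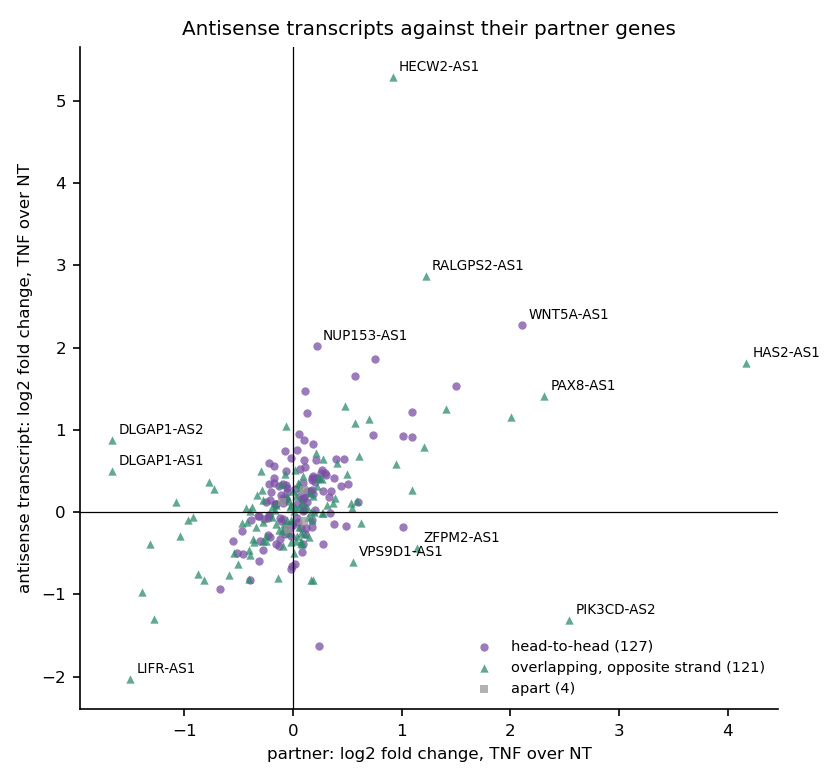
Log2 fold change of TNF over NT for the partner gene (x) and for the antisense transcript (y), with circles for the 127 head-to-head pairs, triangles for the 121 overlapping ones and squares for the 4 apart. Most pairs lie near the origin, HAS2-AS1 and WNT5A-AS1 lie far along with their partners, and the named pairs in the upper left and lower right moved in opposite directions.

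The clearest pair in opposite directions was that of PIK3CD-AS2 (chr1:9672405-9687583, minus strand, 3 exons) and PIK3CD, the catalytic delta subunit of phosphoinositide 3-kinase. PIK3CD-AS2 had 2.65, 1.34, 1.35 and 1.52 CPM in NT and 0.861, 0.614, 0.764 and 0.518 in TNF libraries. PIK3CD had 25.3, 22.1, 21.1 and 17.0 in NT and 145, 119, 126 and 109 in TNF libraries. No group overlapped another in either gene. The antisense transcript fell by 1.31 ± 0.29 (adjusted p = 0.00761) and PIK3CD rose by 2.54 ± 0.13 (adjusted p = 4.87e-07) on the log2 scale. They share no exon, and per kilobase of exons PIK3CD-AS2 went from 1.74 to 0.698 CPM while PIK3CD went from 2.23 to 13.0.

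DLGAP1-AS1 and DLGAP1-AS2 lie inside DLGAP1, which encodes a postsynaptic scaffold protein, and share no exon with it. DLGAP1-AS2 had 4.98, 5.6, 5.57 and 4.16 CPM in NT and 11.5, 9.24, 9.84 and 6.63 in TNF libraries. DLGAP1-AS1 had 3.95, 3.99, 3.97 and 4.28 against 5.83, 5.80, 5.91 and 5.27. DLGAP1, at low level, had 1.26, 0.847, 0.629 and 0.666 against 0.230, 0.399, 0.255 and 0.194. Both antisense transcripts rose with no overlap, by 0.88 ± 0.18 (adjusted p = 0.00431) and 0.50 ± 0.12 (adjusted p = 0.0117), and DLGAP1 fell by 1.67 ± 0.34 (adjusted p = 0.00503). The DLGAP1-AS1 call was lost with no filter on low counts (adjusted p = 0.0570). The members share this partner, so they are not 2 independent cases.

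VPS9D1-AS1 and VPS9D1 moved in opposite directions by similar amounts. VPS9D1-AS1 had 11.7, 11, 12.4 and 9.30 CPM in NT and 7.43, 5.77, 8.01 and 8.02 in TNF libraries, and VPS9D1 had 10.2, 9.92, 9.10 and 10.5 against 15.1, 14.3, 14.2 and 14.4. The changes were -0.60 ± 0.14 (adjusted p = 0.00929) and 0.55 ± 0.09 (adjusted p = 0.00122) on the log2 scale, with exons shared over 29.5% of the antisense transcript. Per kilobase of exons the antisense transcript stood above its partner in NT, at 6.34 against 2.97 CPM, and close to it in TNF libraries, at 4.17 against 4.35.

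ZFPM2-AS1 had 5, 5.85, 5.19 and 4.76 CPM in NT and 4.05, 4.33, 3.71 and 3.30 in TNF libraries. ZFPM2, a cofactor of GATA factors, had 9.62 to 13.0 CPM in NT and 19.7 to 31.2 in TNF libraries and rose by 1.14 ± 0.14 (adjusted p = 2.14e-04). The antisense log2 fold change was -0.44 ± 0.14 (adjusted p = 0.0463), and this call was lost on leaving out any 1 of the 8 libraries (adjusted p from 0.0507 to 0.138).

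**Figure D4:**
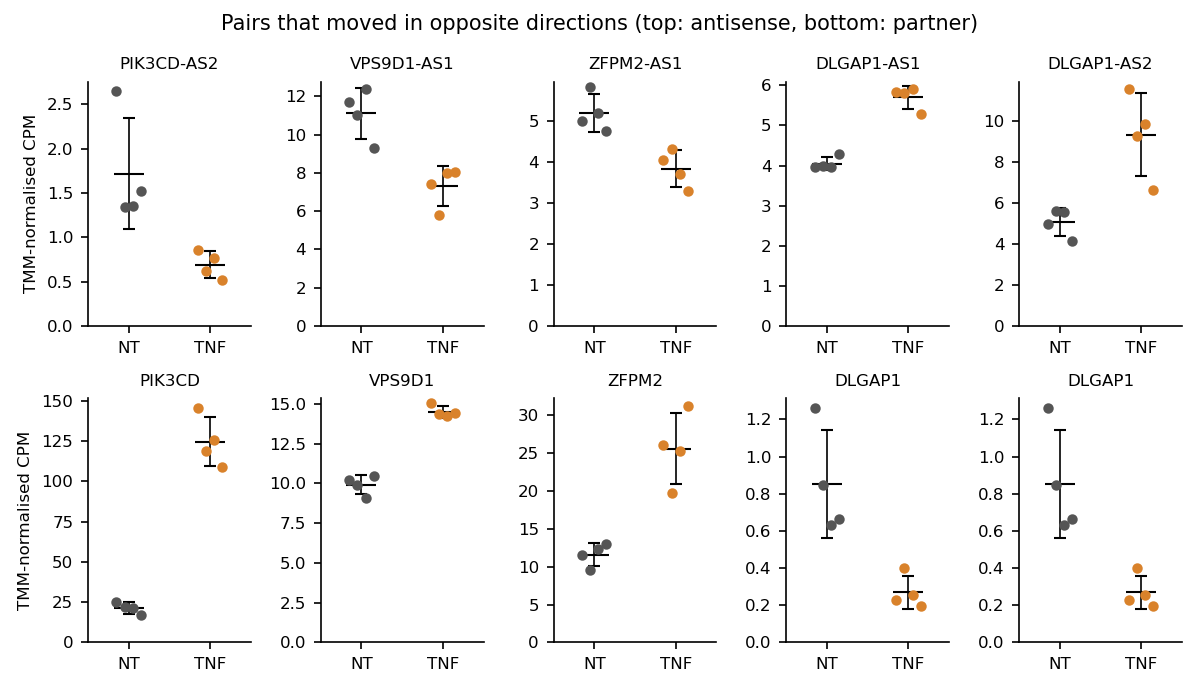
TMM-normalised CPM in each library for the 5 antisense transcripts (top) and the partner of each (bottom), with points for libraries and bars for the mean ± SD (n = 4). PIK3CD-AS2, VPS9D1-AS1 and ZFPM2-AS1 are lower and their partners higher with TNF, and for DLGAP1-AS1 and DLGAP1-AS2, which share the partner DLGAP1, it is the reverse.

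The groups of partners by role that follow are lists of symbols and do not hold every gene of a role. On the list of immune and NF-kB signalling were the partners IRF1, PSMB8, SOCS2 and TRAF3IP2. Of these partners 3 of 4 rose, against 14.5% of all genes tested. Of their 4 antisense transcripts 2 rose, IRF1-AS1 and SOCS2-AS1. Both were members through their TNF level alone, and the floor favours a rise, so their count cannot be compared with that share. IRF1, the interferon-regulated transcription factor, had 11.2, 13.8, 13.6 and 15.1 CPM in NT and 41.8, 55.6, 50.8 and 66.7 in TNF libraries, and IRF1-AS1 had 0.342, 0.246, 0.409 and 0.413 against 0.775, 0.860, 0.695 and 0.809. Both rose without overlap, by 2 ± 0.15 (adjusted p = 5.46e-06) and 1.15 ± 0.26 (adjusted p = 0.00897) on the log2 scale, and 28.8% of the antisense exons lie over exons of IRF1. The IRF1-AS1 call was lost without the 3 libraries with more 7SK and 7SL RNA (adjusted p = 0.0814).

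SOCS2, a suppressor of cytokine signalling, rose by 1.09 ± 0.21 (adjusted p = 0.00285) and SOCS2-AS1 by 1.22 ± 0.38 (adjusted p = 0.0398), the latter lost on leaving out NT 1, NT 2, NT 3, NT 4, TNF 2 or TNF 4 (adjusted p up to 0.106). PSMB8, a subunit of the immunoproteasome, rose from 34.0 to 38.4 CPM in NT to 41.0 to 59.8 in TNF libraries, by 0.47 ± 0.11 (adjusted p = 0.00915). PSMB8-AS1, whose start lies 39 bases away, had 0.940, 1.31, 0.755 and 1.81 against 2.44, 1.84, 1.85 and 1.39, with groups that overlapped and a log2 fold change of 0.65 ± 0.29 (adjusted p = 0.137, and 0.0443 without NT 4). Of its exon bases, 27.7% lie over exons of TAP1, a peptide transporter on the opposite strand that rose by 0.98 ± 0.15 (adjusted p = 7.34e-04). The fourth, TRAF3IP2-AS1, stood at -0.83 ± 0.29 on the log2 scale (adjusted p = 0.0594). It passed with the replicate block (0.0307), without TNF 1 (0.0369), with library totals (0.0426), with at least 10 counts in every library (0.0432) and with upper-quartile factors (0.046). TRAF3IP2, an adaptor of interleukin signalling, had 0.18 (adjusted p = 0.447).

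Some members outside that list also lie beside genes of immune and death receptor signalling, and were chosen after their values were seen. CARD8-AS1 rose by 0.74 ± 0.21 (adjusted p = 0.0287), a call lost without NT 1, NT 2, NT 4, TNF 2 or TNF 3 (up to 0.125 over all alternatives), and CARD8, an inflammasome sensor, had -0.08 ± 0.16 (adjusted p = 0.787). TNFRSF10A, a death receptor for TRAIL, rose by 0.39 ± 0.08 (adjusted p = 0.00581), and TNFRSF10A-AS1 had 0.17 ± 0.26 (adjusted p = 0.69). MAP3K14-AS1 had 0.32 ± 0.30 (adjusted p = 0.496) and MAP3K14, the NF-kB-inducing kinase, 0.22 ± 0.19 (adjusted p = 0.461). CD27-AS1 had -0.10 ± 0.18 (adjusted p = 0.759), and its partner CD27 was too low to be tested. TAPBPL, whose start lies 474 bases from that of CD27-AS1, rose by 1.14 (adjusted p = 1.52e-04).

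Of 21 members whose partner or cluster is on the list of chromatin and transcription factors, 1 rose, HOXC-AS2, and 1 fell, NR2F1-AS1. The shares were 12.5% higher and 5.57% lower over all members, and 14.5% and 9.9% over all genes tested. Of the 14 partners on this list 2 rose and 2 fell. Outside the list, PAX8-AS1, IRF1-AS1, FOXD1-AS1 and MSC-AS1, which rose, and SP2-AS1, which fell, also lie beside genes of transcription factors, so the count is that of the list and not of the role. The 7 members of the HOX clusters had log2 fold changes from -0.36 to 0.65. HOXC-AS2 was at 1.36 to 1.83 CPM in NT and 2.17 to 2.64 in TNF libraries, a log2 fold change of 0.65 ± 0.17 (adjusted p = 0.0193), and its call was lost without NT 3, NT 4, TNF 1 or TNF 2 (adjusted p up to 0.0692 over all alternatives). HOXA-AS2 had 0.01 ± 0.24 (adjusted p = 0.990) and HOXA-AS3 -0.36 ± 0.34 (adjusted p = 0.5). FOXD3, a neural crest factor that represses differentiation, fell by 1.32 ± 0.25 on the log2 scale (adjusted p = 0.00314), from 10.1 to 24.6 CPM in NT to 5.81 to 7.89 in TNF libraries. FOXD3-AS1 had 5.17, 5.33, 4.09 and 4.38 against 4.19, 3.62, 3.75 and 2.88, a log2 fold change of -0.39 ± 0.16 (adjusted p = 0.109, and 0.0346 with the replicate block). ZEB1-AS1, HIF1A-AS3 and KMT2E-AS1 had log2 fold changes of 0.03, -0.06 and 0.32, none past the test, while KMT2E, a chromatin reader, rose by 0.44 ± 0.13 (adjusted p = 0.0260), a call lost without NT 2, NT 3, NT 4, TNF 1 or TNF 2 (up to 0.0810).

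With 18.1% of all members past the test in either direction, a 0 in a list of 5 or 6 says little about the role. Of 5 members beside listed genes of the cell cycle and DNA repair, 0 passed the test, with 1 at an unadjusted p under 0.05. That was TMPO-AS1, at 15, 10.5, 12.5 and 9.23 CPM in NT and 25.8, 14.4, 15.4 and 16.2 in TNF libraries, a log2 fold change of 0.60 ± 0.21 (adjusted p = 0.0590, 7.77e-04 with the replicate block and 0.0361 without NT 1). TMPO, a protein of the nuclear lamina, fell by 0.22 ± 0.07 (adjusted p = 0.0298), a call lost without NT 1, NT 3, NT 4, TNF 2 or TNF 3 (up to 0.0758). Of 6 members beside listed mitochondrial and metabolic genes (COX10, NDUFB2, SLC16A1, SLC25A25, SUCLG2 and UGDH), 0 passed in edgeR and 0 were at an unadjusted p under 0.05. Outside that list NNT-AS1, beside the mitochondrial transhydrogenase NNT, rose by 0.34 ± 0.11 (adjusted p = 0.0431), a call lost without NT 2, NT 3, NT 4, TNF 1, TNF 2 or TNF 3 and in 11 of 18 alternatives in all (up to 0.158), and NNT had -0.09 ± 0.11 (adjusted p = 0.598). The list of matrix and adhesion genes held only MMP25 and THBS3 as partners, and neither antisense transcript passed, while HAS2-AS1 and ITGB2-AS1, which rose, are not on it. MMP25, a membrane-anchored metalloproteinase, rose by 1.10 ± 0.24 (adjusted p = 0.00779) from low levels. The value for MMP25-AS1 was 0.27 ± 0.18 (adjusted p = 0.317).

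Partners that moved alone included CEBPB, a transcription factor of the acute phase response, named here after its values were seen. CEBPB had 76.6 to 85.8 CPM in NT and 146 to 179 in TNF libraries, a log2 fold change of 1.01 ± 0.08 (adjusted p = 1.06e-05). CEBPB-AS1, its head-to-head antisense transcript, had 0.748, 0.847, 0.818 and 0.539 against 0.890, 0.338, 0.672 and 0.712, and its groups overlapped at -0.18 ± 0.31 (adjusted p = 0.743). Its NT libraries held 17 to 35 counts, and the 95% interval of its log2 fold change, -0.79 to 0.44, did not reach the value of CEBPB.

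The most abundant members moved little. FGD5-AS1 had 84.3, 96.1, 90.0 and 90.7 CPM in NT and 82.9, 90.2, 88.9 and 75.6 in TNF libraries, a log2 fold change of -0.10 ± 0.08 (adjusted p = 0.421). OIP5-AS1 had -0.14 ± 0.12 (adjusted p = 0.450), NUTM2A-AS1 0.06 ± 0.08 (adjusted p = 0.674) and TPT1-AS1 -0.39 ± 0.13 (adjusted p = 0.0506, 0.0301 with the replicate block and 0.0223 without NT 3). AGAP2-AS1 alone of the 5 passed, at 22.3, 23.4, 22.9 and 22.6 CPM in NT and 29.0, 30.2, 26.1 and 31.3 in TNF libraries, a log2 fold change of 0.35 ± 0.08 (adjusted p = 0.00743). AGAP2, a GTPase-activating protein, had 0.04 ± 0.24 (adjusted p = 0.926), and 57.7% of the AGAP2-AS1 exons lie over its exons. A larger share, 91.9%, lies over exons of OS9 on the same strand, and OS9 had 0.08 ± 0.11 (adjusted p = 0.663). Reads of such a stretch cannot be told apart by strand.

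Of the others listed by name, GAS6-AS1 rose by 0.79 ± 0.24 (adjusted p = 0.0340) beside GAS6, the ligand of the AXL receptor, at 1.2 ± 0.24 (adjusted p = 0.00417), and the antisense call was lost without NT 1, NT 2, NT 4, TNF 1 or TNF 3 (up to 0.101). RGMB-AS1 rose by 0.93 ± 0.28 (adjusted p = 0.0349) beside RGMB, a coreceptor of bone morphogenetic proteins, at 1.01 ± 0.25 (adjusted p = 0.0144), and the former was lost without NT 1, NT 2, NT 3, TNF 1, TNF 2 or TNF 4 (up to 0.102). MAPKAPK5-AS1, MCM3AP-AS1, SBF2-AS1, STX18-AS1 and SEPSECS-AS1 had log2 fold changes between -0.48 and 0.25 and adjusted p from 0.130 to 0.799.

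**Figure D5:**
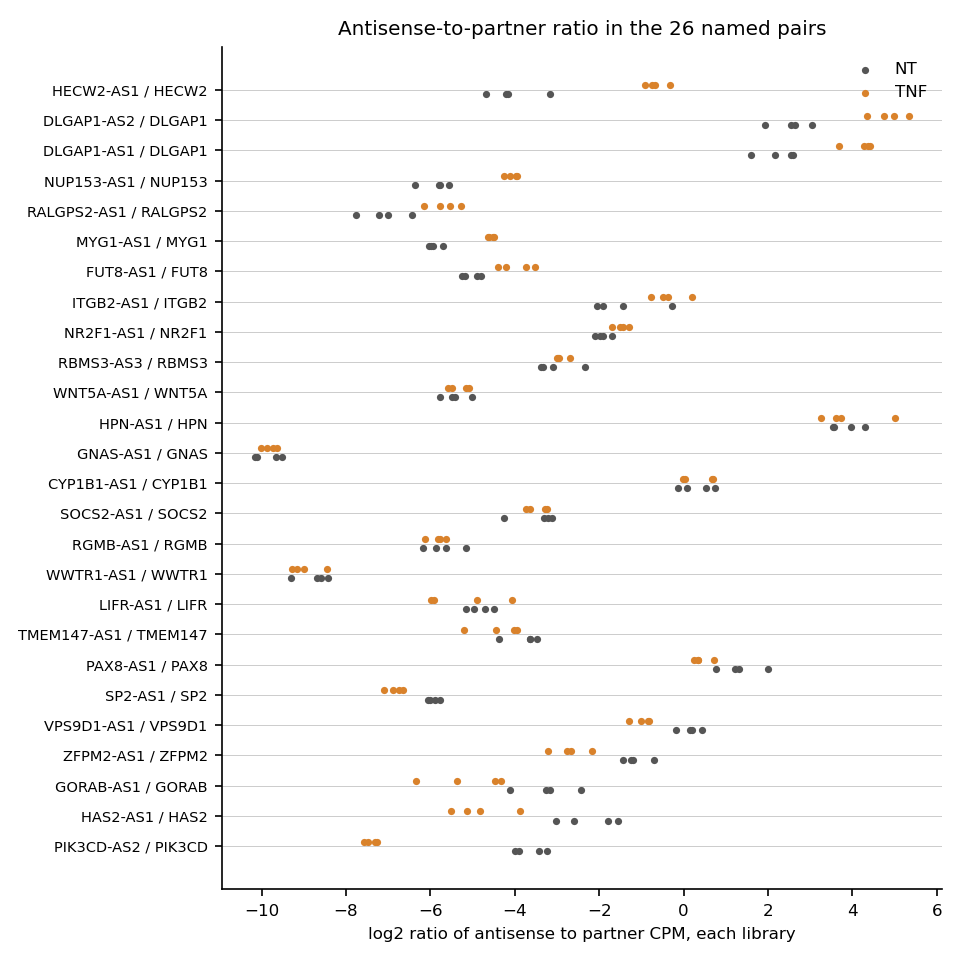
Log2 ratio of antisense to partner CPM in each library (x) for the 26 named pairs, sorted by the change of the ratio with TNF, with 4 points per group. The ratio fell most for PIK3CD-AS2 (-3.64 to -7.40, group means) and rose most for HECW2-AS1 (-4.06 to -0.67), while for WNT5A-AS1, CYP1B1-AS1 and GNAS-AS1 the groups overlap.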

How the data were processed

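A375 RNA was sequenced in 8 libraries, 4 NT and 4 TNF. Per the labels and the paper's methods, the authors prepared stranded polyadenylated-RNA libraries, mapped reads to GRCh38 with Bowtie2 and quantified genes by RSEM 1.2.25. What the authors deposited, and what was used, is the expected count of each gene without normalisation. The aligner's version and the strand setting of RSEM: not given in the sources used here. Columns of the series table were matched to samples by title, and replicates are numbered by experiment date. Files of single samples were not used, since those of the NT records hold the counts of another date's NT column.

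Expected counts were rounded and filtered by filterByExpr of edgeR 4.0.16 (minimum count 10, total 15), leaving 16186 genes. They were normalised by TMM and tested with the quasi-likelihood method (R 4.3.3, robust, 1 term for treatment). P-values were adjusted by Benjamini-Hochberg over these genes and called at 0.05. Log2 CPM for ratios used a prior count of 2. The standard error of a log2 fold change was derived as its size over the root of F. Positions, exon overlap and arrangement came from GENCODE 44 on GRCh38, matched by gene ID, which is a later release than the one the paper names. Promoters came from RefSeq.

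Same-numbered NT and TNF libraries share a date and deviated together from their group means (r = 0.351, 0.169, 0.238 and 0.46 over 16186 genes), so the numbers pair them, and a replicate block was run. No library pair of a group was alike within counting noise (chi-square per degree of freedom at least 12.2). The paper's methods call the 4 experiments independent, so p-values measure the spread between experiments.

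Alternatives were DESeq2 1.42.0 and limma 3.58.1 (voom), RLE, upper-quartile and library-total scaling, a filter of at least 10 counts in every library, none at all, the replicate block, each library left out, a threshold of 0.01, a floor of 1 CPM or of 0.5 in each group, and pairs with no exon overlap. After the data were seen, fits without the 3 libraries rich in 7SK and 7SL RNA and without the fourth experiment were added. The scripts were tested on simulated data with no effect of date. Of the calls made there at an adjusted p under 0.05, 2.44% were false with edgeR and 5.51% with limma voom. The share was 9.52% with the replicate block in edgeR and 14.5% with DESeq2.

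Members and lists were chosen with earlier results of these data known. Named are the 10 largest rises and falls among members past the threshold with their partners, the pairs called in opposite directions, 6 head-to-head pairs called in the same direction, the 5 most abundant members, those at the floor, and a list of known antisense transcripts. CEBPB, MMP25, KMT2E, TAP1, OS9, TAPBPL, the pairs of CARD8-AS1, TNFRSF10A-AS1, MAP3K14-AS1 and NNT-AS1, CD27-AS1 and members in counts lie outside this rule.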

Additional observations from a re-analysis of the deposited data

Results flagged for a closer look

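Of 150 sets of 4 libraries of the named genes, 7 held a value further from the other 3 than Dixon's critical value for 4 values allows, and chance would give about 7.5. In log2 CPM, TNF 4 was low for HPN-AS1 (1.95 against 2.41 to 2.46 in the other TNF libraries), for HOXA-AS3 (-1.17 against 0.18 to 0.39), for KMT2E-AS1 (-1.53 against -0.55 to -0.37) and for DLGAP1-AS1 (2.41 against 2.55 to 2.58). NT 4 was high for DLGAP1-AS1 (2.12 against 2.0 to 2.02) and low for MCM3AP-AS1 (0.95 against 1.13 to 1.16), and NT 1 was high for LIFR (4.91 against 4.52 to 4.55). Of the 7, 6 were libraries of the fourth experiment. Without both of its libraries 36 members rose and 14 fell, against 2499 and 1895 of all genes.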

How the results depend on the processing

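Depth limits the low members: the median standard error of the log2 fold change was 0.29 for members at or below the median level and 0.17 above it. Of the 52 members called, 22 (17 of them higher) passed under every alternative fit and 30 lost the call in at least 1. The filter of at least 10 counts in every library leaves HECW2-AS1, RALGPS2-AS1, HAS2-AS1, LIFR-AS1, GORAB-AS1 and IRF1-AS1 untested. Library totals moved the median log2 fold change of all genes to -0.09 and upper-quartile factors to -0.06. With library totals 33 members rose and 25 fell, against 1925 and 2514 of all genes. With upper-quartile factors 34 and 24 members did, against 2045 and 2196 of all genes. The replicate block, in which the pairing by date is used, gave 32 lower members, 65 higher and 48 lower partners, and 40 pairs in the same and 10 in opposite directions. With library totals, 43 partners were lower. At a threshold of 0.01 there were 20 higher and 5 lower members, 13 lower partners, and 12 pairs in the same and 3 in opposite directions. At least 10 counts in every library and no filter each left 3 pairs in opposite directions. Pairs with no exon overlap held 5 in the same direction. With 1 library left out, higher members ran from 26 to 40, lower members from 8 to 14, higher partners from 29 to 43, lower partners from 19 to 32, pairs in the same direction from 16 to 24 and in opposite directions from 4 to 5. Over all genes these fits gave 1880 to 2521 higher and 1110 to 1896 lower. The cause was not tested. Among the members named with values above and the partners of the 26 pairs, the block changed no other call. Block values of lineage genes such as VWF are not given here.

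Changes of sign were limited to values that passed no test. HOXA-AS2 (log2 fold change 0.01) was -0.0024 with DESeq2, -0.003 with RLE factors, -0.0708 with library totals, -0.0128 with limma voom, -0.0095 with no filter, -0.0125 with the replicate block and -0.05 with upper-quartile factors. ZEB1-AS1 was -0.045 with library totals, -0.0202 with limma voom, -0.0132 with the block and -0.0239 with upper-quartile factors. NUTM2A-AS1 was -0.0263 and -0.0007 with library totals and upper-quartile factors. Without the fourth experiment HIF1A-AS3 was 0.0266 and MYG1 -0.0073, and without the 3 libraries rich in 7SK and 7SL RNA FGD5-AS1 was 0.0028. With 1 library left out the log2 fold change ran from -0.1374 to 0.1746 for HOXA-AS2, from -0.1544 to 0.1782 for ZEB1-AS1, from -0.3928 to 0.1998 for YTHDF3-AS1, from -0.2221 to 0.0752 for HIF1A-AS3, from -0.1426 to 0.0266 for MAPKAPK5-AS1, from -0.2142 to 0.0794 for TMEM147, from -0.2603 to 0.0554 for SBF2-AS1 and from -0.0295 to 0.1666 for MYG1. The log2 ratio of antisense to partner changed from NT to TNF by -0.0169 to 0.243 for WNT5A-AS1, -0.0954 to 0.1994 for CYP1B1-AS1, -0.3111 to 0.2758 for HPN-AS1, -0.0482 to 0.1641 for GNAS-AS1, -0.2596 to 0.1229 for SOCS2-AS1 and -0.2868 to 0.051 for RGMB-AS1.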
